A study of Mus musculus with 2 samples.

Results

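Rbp4-positive contractile smooth muscle cells are aortic cells with a high level of Myh11, a myosin of smooth muscle, together with Rbp4, the gene of retinol-binding protein. They were chosen by measured values: a deposited value of at least 20 for Myh11 and at least 2 for Rbp4, under 2 for Tnnt2, under 5 for Igfbp2, under 3 for Rgs5, under 5 for the sum of C1qa, C1qb and C1qc, and under 2 for the sum of Pecam1 and Cdh5. The rule kept 522 of 7358 cells, 374 of 4397 with GLPG0187 and 148 of 2961 with vehicle. They were set against the 1603 other Myh11-high cells, 1142 with GLPG0187 and 461 with vehicle. Among those, 314 GLPG0187 and 122 vehicle cells met every limit but had Rbp4 under 2, and these are called Rbp4-low cells.

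Both groups were Fbn1C1041G/+ mice, a model of Marfan syndrome, whose aortic root and ascending aorta were taken at 16 weeks of age. Mice of the first group received GLPG0187, an inhibitor of integrin alpha v per the labels, and mice of the second group received vehicle, in both cases every day from 6 weeks of age. Tissue of male and female mice was pooled per group, brought to single cells by enzymes, sorted to remove debris and sequenced from the 3' end of transcripts with droplet chemistry, 1 library per group, with the number of animals not given in the sources used here. With 1 library per group there is no replicate check of any difference between GLPG0187 and vehicle, no test was run, and treatment and library cannot be told apart.

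Contractile smooth muscle cells of the aortic media express actin, myosin and their regulators and lie between elastic lamellae. In the Marfan aorta, some of them take on a modulated state in which matrix and adhesion genes such as Vcam1 and Fn1 rise, and integrins of the alpha v group are known to release active TGF-beta from its latent complex. Rbp4 carries retinol in the blood and is best known as a product of liver and fat; its expression in other tissues is also known.

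All values are the deposited ones, whole numbers corrected for depth that are not counts of molecules. Totals per cell lay between 12135 and 16719 with GLPG0187 and between 12078 and 16187 with vehicle, so the original depth of a cell is unknown. Rbp4-positive cells had a median of 4006 detected genes with GLPG0187 and 4190 with vehicle, and other Myh11-high cells had 4099 with GLPG0187 and 4213 with vehicle. Between the libraries 5 cell barcodes were shared, and 0 of them were Rbp4-positive. A level below is the mean value per cell, and a log2 ratio compares the summed values of a gene plus 1, divided by the population's total.

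Rbp4 itself is on chromosome 19 (chr19:38116629-38125281, minus strand), Tes on chromosome 6 (chr6:17065149-17105828, plus strand) and Npr1 on chromosome 3 (chr3:90450591-90465866, minus strand) of mouse build GRCm38. RefSeq's stretches of 300 bases around each start (build GRCm38.p6) are printed for Rbp4, whose value chose the cells, and for Tes and Npr1, the highest-ranked of the 3 genes outside the rule that were at least 1.5-fold above other Myh11-high cells in both libraries and present in at least 20% of cells. Capitals mark matches on either strand to TGGGAA (a core of RBPJ sites), AGGTCA (a core of nuclear receptor sites), the CArG box of serum response factor and TATAAA.
Rbp4 start 1, chr19:38125272-38125571, minus strand: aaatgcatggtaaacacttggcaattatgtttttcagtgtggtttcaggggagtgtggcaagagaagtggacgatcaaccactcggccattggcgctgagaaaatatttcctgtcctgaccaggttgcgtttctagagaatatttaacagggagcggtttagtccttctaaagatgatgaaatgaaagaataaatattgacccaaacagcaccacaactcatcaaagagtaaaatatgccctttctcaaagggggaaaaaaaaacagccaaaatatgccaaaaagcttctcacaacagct
Rbp4 start 2, chr19:38124762-38125061, minus strand: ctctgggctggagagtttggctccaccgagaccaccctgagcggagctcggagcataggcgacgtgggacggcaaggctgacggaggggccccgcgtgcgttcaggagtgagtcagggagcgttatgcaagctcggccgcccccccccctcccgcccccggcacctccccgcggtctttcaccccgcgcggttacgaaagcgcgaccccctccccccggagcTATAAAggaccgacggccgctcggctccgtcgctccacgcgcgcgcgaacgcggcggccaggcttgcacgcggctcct
Tes start 1, chr6:17064899-17065198, plus strand: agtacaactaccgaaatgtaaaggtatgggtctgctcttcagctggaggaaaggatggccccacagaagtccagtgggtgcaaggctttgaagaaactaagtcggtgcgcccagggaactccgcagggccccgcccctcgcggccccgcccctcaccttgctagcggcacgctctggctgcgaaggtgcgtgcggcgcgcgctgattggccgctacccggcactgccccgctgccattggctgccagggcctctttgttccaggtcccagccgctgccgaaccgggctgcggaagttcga
Npr1 start 1, chr3:90465817-90466116, minus strand: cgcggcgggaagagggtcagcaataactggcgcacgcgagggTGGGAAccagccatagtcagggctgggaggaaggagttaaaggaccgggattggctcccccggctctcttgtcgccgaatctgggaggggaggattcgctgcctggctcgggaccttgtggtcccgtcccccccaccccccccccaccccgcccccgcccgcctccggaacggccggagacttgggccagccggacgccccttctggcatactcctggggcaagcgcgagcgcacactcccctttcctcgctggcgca
The second Rbp4 start held 1 match to TATAAA, a letter string found in 13.6% of the 32851 mouse stretches of this length. Npr1 held 1 match to TGGGAA, found in 25.6% of them. Tes and the first Rbp4 start held no match, nor did any of the 4 stretches match AGGTCA, found in 16.3%, or the CArG box, found in 1.63%. These are descriptions of letters in a window and were not set against any measure of binding.

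The contractile label was borne out by its genes. Acta2, smooth muscle actin, averaged 312 ± 103 in GLPG0187 and 324 ± 116 in vehicle Rbp4-positive cells (SD over 374 and 148 cells), and Cnn1, calponin, averaged 24.95 ± 11.2 with GLPG0187 and 23.8 ± 11.5 with vehicle. Other Myh11-high cells had 322 with GLPG0187 and 307 with vehicle for Acta2 and 25.2 with GLPG0187 and 22.03 with vehicle for Cnn1, so these genes did not set the Rbp4-positive cells apart. Markers of other cells were not all near 0. The 7 fibroblast markers summed to 8.11 with GLPG0187 and 1.42 with vehicle per cell, with a median of 1 in each library. The 4 pericyte markers, Abcc9 among them, summed to 1.71 with GLPG0187 and 1.47 with vehicle, against 1.18 with GLPG0187 and 1.22 with vehicle in other Myh11-high cells. The 4 chondrocyte-like markers, of which Col2a1 was at 0 in both libraries, summed to 1.97 with GLPG0187 and 1.64 with vehicle, against 1.34 with GLPG0187 and 2.35 with vehicle in other Myh11-high cells. The 5 endothelial markers summed to 0.0348 with GLPG0187 and 0.0270 with vehicle per cell, the 5 cardiomyocyte markers to 0.0187 with GLPG0187 and 0.0473 with vehicle, and the 3 mesothelial markers (Msln, Upk3b and Krt19) were at 0 in both libraries. The 5 macrophage markers, which include Cd74, summed to 0.615 with GLPG0187 and 0.291 with vehicle, against 3.63 with GLPG0187 and 1.15 with vehicle in other Myh11-high cells. In Rbp4-low cells, which share the C1q limit, they summed to 0.940 with GLPG0187 and 0.475 with vehicle.

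Rbp4 was not particular to these cells or to smooth muscle. Among Rbp4-positive cells its level averaged 6.30 ± 7.73 with GLPG0187 and 5.47 ± 3.70 with vehicle, with a median of 4 in each and a highest cell of 110 with GLPG0187 and 20 with vehicle. Other Myh11-high cells averaged 2.06 with GLPG0187 and 1.74 with vehicle. Within the limits on other genes, values ran on without a gap across the threshold: in the GLPG0187 library 114 cells had the value 1, 93 had 2 and 48 had 3, and in the vehicle library 47, 33 and 23 did. Just inside and outside the Myh11 limit, 19 GLPG0187 and 12 vehicle Rbp4-positive cells had Myh11 from 20 to 24, while 14 GLPG0187 and 16 vehicle cells that met the rest of the rule had Myh11 from 15 to 19. Cells with Pdgfra of at least 2 and Myh11 under 5, which carry a fibroblast receptor, averaged 7.20 with GLPG0187 and 7.55 with vehicle for Rbp4 and had a value of at least 2 in 57.8% of GLPG0187 and 60.9% of vehicle cells. In cells with C1q, a macrophage product, 4.45% of 292 GLPG0187 and 4.27% of 164 vehicle cells reached that value, at a median number of detected genes of 3180 with GLPG0187 and 3033 with vehicle.

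Of Myh11-high cells, 747 with GLPG0187 and 271 with vehicle had Rbp4 of at least 2, and 373 GLPG0187 and 123 vehicle cells of these were kept out by a limit. Tnnt2, cardiac troponin T, kept out 205 with GLPG0187 and 63 with vehicle, Igfbp2 169 with GLPG0187 and 55 with vehicle, Rgs5 42 with GLPG0187 and 14 with vehicle, the endothelial sum 24 with GLPG0187 and 5 with vehicle, and the C1q sum 5 with GLPG0187 and 1 with vehicle, with some cells past several limits. Rbp4 was thus also present in Myh11-high cells of the Tnnt2, Igfbp2 and Rgs5 classes, which averaged 2.42, 2.54 and 2.82 with GLPG0187 and 2.04, 1.96 and 3.63 with vehicle.

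Of the other 5 genes given as markers with the definition, which came from results of these data, Tes differed most. Tes, a LIM-domain protein of focal adhesions and actin stress fibres, averaged 1.60 ± 2.10 in GLPG0187 and 1.49 ± 1.85 in vehicle Rbp4-positive cells, against 0.851 with GLPG0187 and 0.718 with vehicle in other Myh11-high cells, log2 ratios of 0.92 with GLPG0187 and 1.06 with vehicle. It was above 0 in 63.1% of GLPG0187 and 63.5% of vehicle Rbp4-positive cells, against 42.3% of GLPG0187 and 40.8% of vehicle cells among the others. The Pdgfra-carrying cells, whose Rbp4 was above that of Rbp4-positive cells, almost lacked Tes, at 0.0223 with GLPG0187 and 0.0133 with vehicle.

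Fibin and Ntf3 lay close to 1.5-fold, a log2 ratio of 0.585. Fibin, which encodes a secreted protein, averaged 1.57 in GLPG0187 and 1.63 in vehicle Rbp4-positive cells, against 1.06 with GLPG0187 and 1.08 with vehicle in other Myh11-high cells, the population set against them in the next sentences too, log2 ratios of 0.57 with GLPG0187 and 0.60 with vehicle. Ntf3, the neurotrophin-3 gene, averaged 1.12 with GLPG0187 and 1.17 with vehicle, against 0.780 with GLPG0187 and 0.779 with vehicle, log2 ratios of 0.54 with GLPG0187 and 0.60 with vehicle. Heyl, a target of Notch signalling, averaged 1.10 with GLPG0187 and 1 with vehicle, against 0.910 with GLPG0187 and 0.861 with vehicle. Htra3, a secreted serine protease, averaged 0.738 with GLPG0187 and 0.507 with vehicle, against 0.483 with GLPG0187 and 0.443 with vehicle, and stood far higher in the Pdgfra-carrying cells, at 3.93 with GLPG0187 and 3.55 with vehicle.

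**Figure D1:**
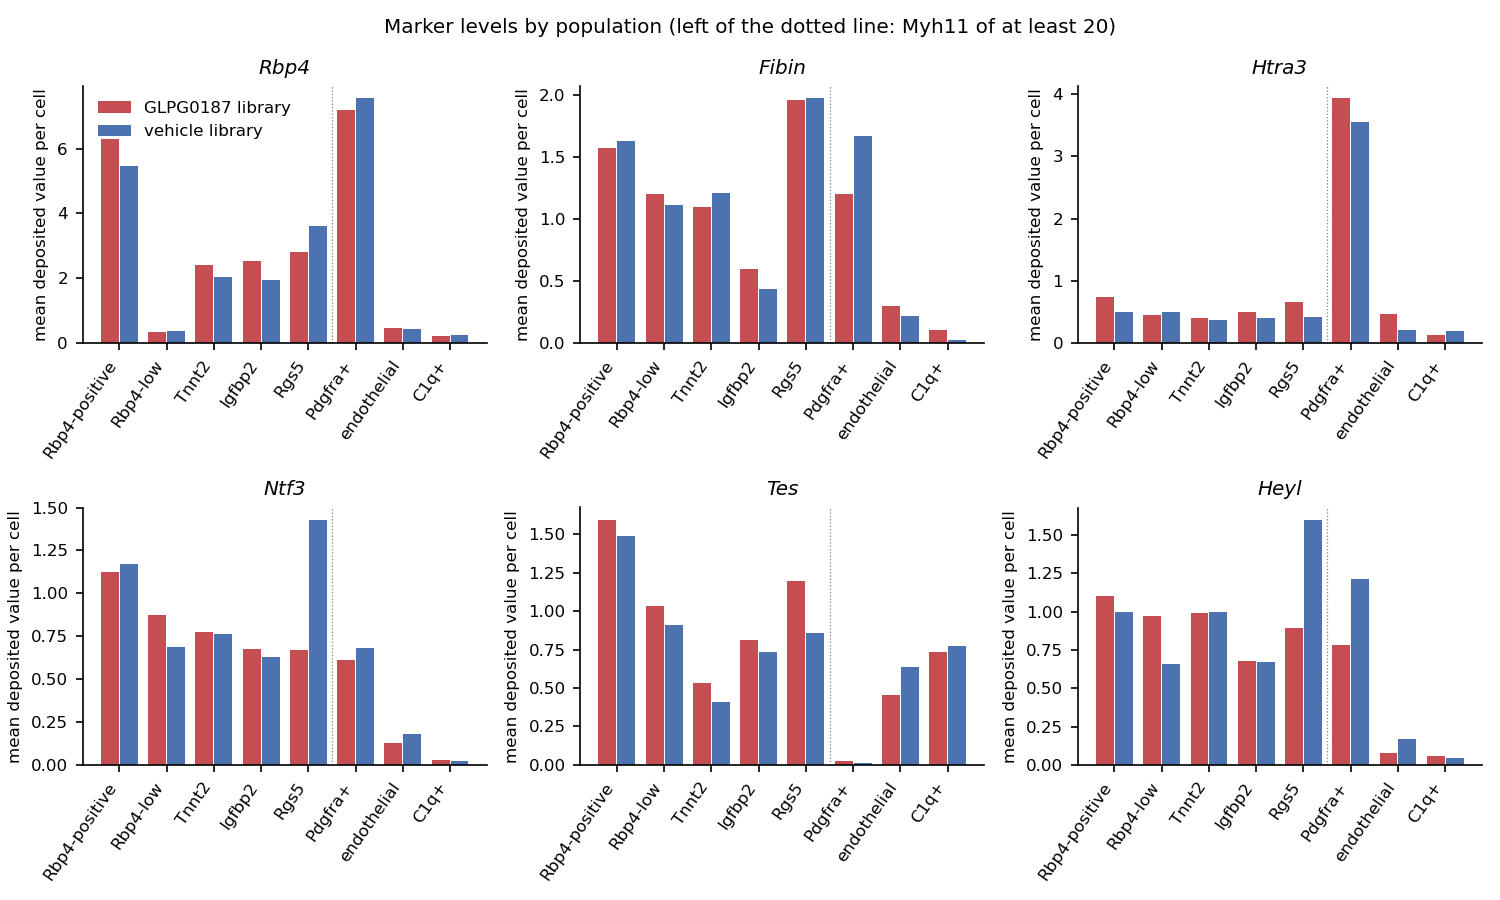
Mean deposited value per cell (vertical axis) of Rbp4 and the 5 other markers in Rbp4-positive cells, Rbp4-low cells, Myh11-high cells past the Tnnt2, Igfbp2 or Rgs5 limit (classes that overlap), and cells with Myh11 under 5 that carry Pdgfra, endothelial or C1q transcripts. Red bars are the GLPG0187 library and blue bars the vehicle library; Tes stands at 1.60 in GLPG0187 and 1.49 in vehicle Rbp4-positive cells and at 0.0223 with GLPG0187 and 0.0133 with vehicle in Pdgfra-carrying cells, where Rbp4 stands at 7.20 with GLPG0187 and 7.55 with vehicle.

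The markers were rarely all present in the same cell. At least 3 of the 5 were above 0 in 64.7% of GLPG0187 (exact 95% interval 59.6 to 69.5%) and 59.5% of vehicle Rbp4-positive cells (51.1 to 67.4%), against 40.7% of other Myh11-high cells with GLPG0187 and 36.0% with vehicle. All 5 were above 0 in 8.29% of GLPG0187 and 6.76% of vehicle Rbp4-positive cells, against 3.59% of the others with GLPG0187 and 4.77% with vehicle. The 2 vehicle intervals overlapped, 3.29 to 12.1% and 3.02 to 7.14%. In the Rgs5 class all 5 were above 0 in 8.49% of 106 GLPG0187 and 8.57% of 35 vehicle cells, and at least 3 in 43.4% and 54.3%. The Tnnt2 class had all 5 in 2.70% and 3.52%, and the Igfbp2 class in 1.60% and 2.67%. These and the following intervals cover counting error only.

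Within the limits, Tes rose with the Rbp4 value up to 2 to 3 in both libraries and changed little above it. It averaged 0.940 in GLPG0187 and 0.880 in vehicle cells with Rbp4 at 0, 1.20 with GLPG0187 and 0.957 with vehicle at 1, 1.56 with GLPG0187 and 1.46 with vehicle at 2 to 3, 1.56 with GLPG0187 and 1.48 with vehicle at 4 to 7, and 1.69 with GLPG0187 and 1.56 with vehicle at 8 or more. Palld, which encodes the actin-bundling protein palladin, ran the other way, from 3.40 with GLPG0187 and 3.33 with vehicle in cells with Rbp4 at 0 to 1.13 with GLPG0187 and 1.28 with vehicle in cells with 8 or more. The largest step in Palld was between the values 0 and 1, outside the Rbp4-positive cells, at 1.92 with GLPG0187 and 1.57 with vehicle for the value 1.

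**Figure D2:**
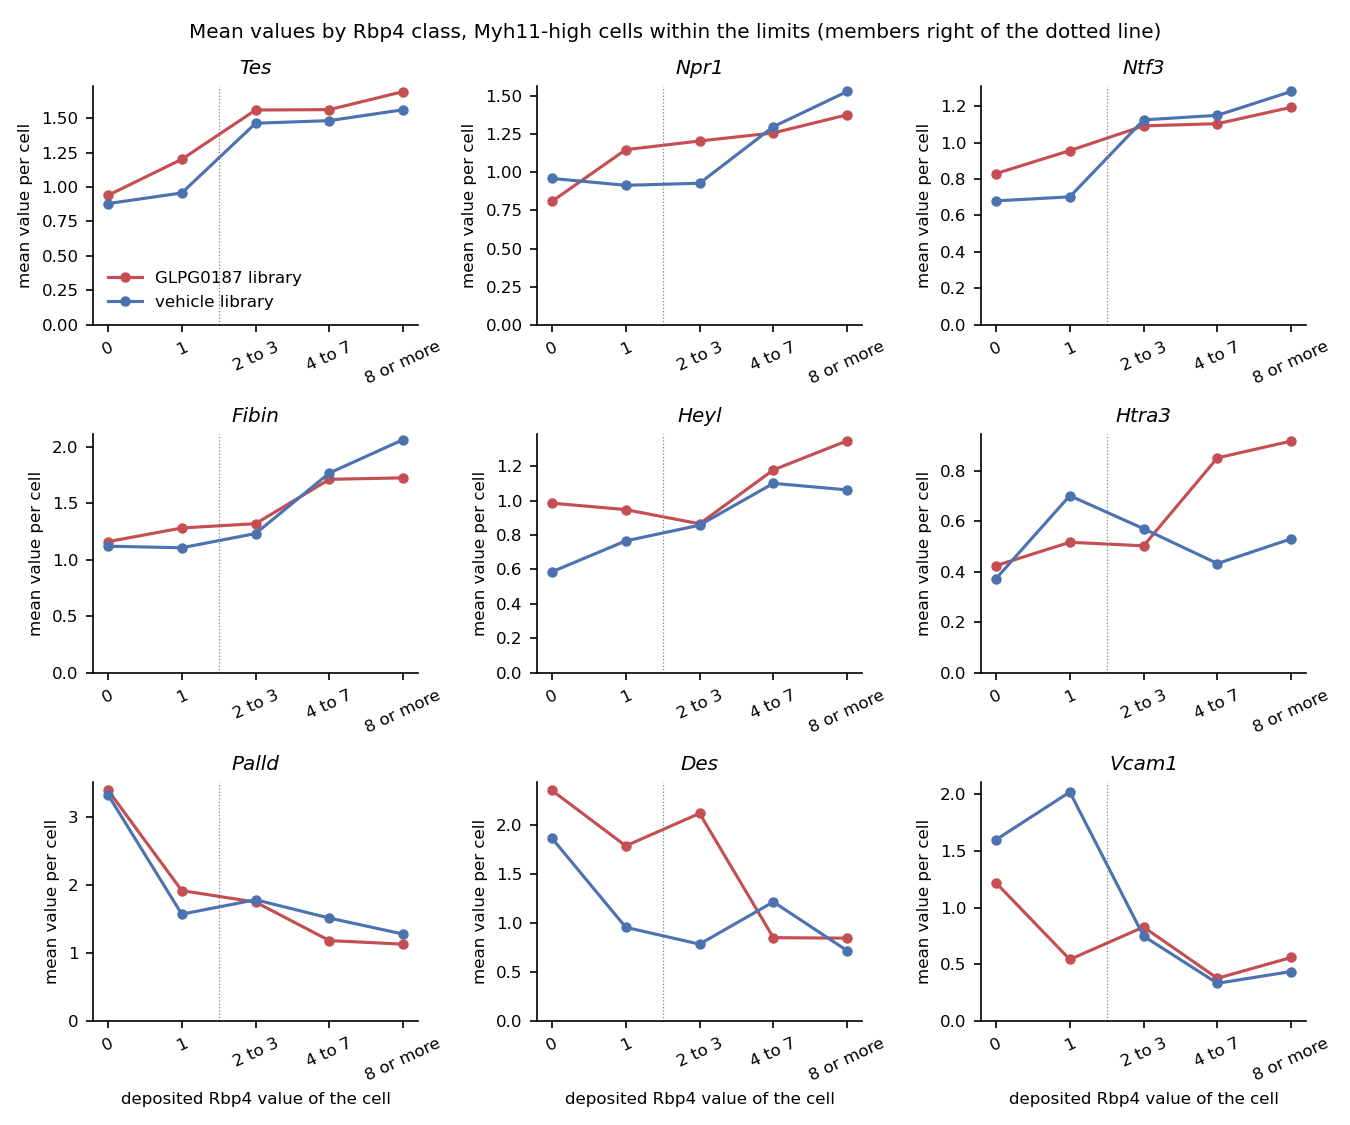
Mean value per cell (vertical axis) of 9 genes in Myh11-high cells within the limits, by the cell's own Rbp4 value (horizontal axis), for the GLPG0187 library in red and the vehicle library in blue. Rbp4-positive cells lie right of the dotted line; Tes is at 0.940 with GLPG0187 and 0.880 with vehicle in cells with Rbp4 at 0 and at 1.69 with GLPG0187 and 1.56 with vehicle in cells with 8 or more, and Palld at 3.40 with GLPG0187 and 3.33 with vehicle and at 1.13 with GLPG0187 and 1.28 with vehicle.

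Few genes separated Rbp4-positive from other Myh11-high cells. Of 8911 genes averaging at least 0.1, 9 (0.101%) were at least 1.5-fold higher in both libraries and 58 (0.651%) at least 1.5-fold lower. Because the rule fixed the cells on Rbp4 and on the limits, these counts describe the contrast that chose them. The ratios of the 2 libraries correlated across 8902 genes, the rule's own genes left out, with r = 0.31; genes are not independent replicates.

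Outside the rule's genes, 3 genes were higher in both libraries and present in at least 20% of Rbp4-positive cells, among them Tes and Npr1. Npr1, the receptor of natriuretic peptides that makes cGMP, averaged 1.27 ± 1.30 in GLPG0187 and 1.21 ± 1.22 in vehicle Rbp4-positive cells, against 0.806 with GLPG0187 and 0.751 with vehicle in other Myh11-high cells, log2 ratios of 0.67 with GLPG0187 and 0.70 with vehicle. Among cells with Xist and no Y-linked transcript, the ratio of Npr1 was 0.70 with GLPG0187 and 0.08 with vehicle, which held 46 such Rbp4-positive cells.

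Of 23 genes lower in both libraries by the same rule, Des, the intermediate filament protein desmin, averaged 1.33 with GLPG0187 and 0.946 with vehicle, against 3.23 with GLPG0187 and 3.12 with vehicle in other Myh11-high cells, log2 ratios of -1.27 with GLPG0187 and -1.71 with vehicle. Vcam1, an adhesion molecule of modulated smooth muscle, averaged 0.596 with GLPG0187 and 0.514 with vehicle, against 1.16 with GLPG0187 and 1.65 with vehicle. In vehicle Rbp4-positive cells, 4 cells held 50% of the sum of Des and 5 that of Vcam1. Apoe, apolipoprotein E, averaged 3.02 with GLPG0187 and 1.22 with vehicle, against 6.79 with GLPG0187 and 6.82 with vehicle. Its log2 ratio against Rbp4-low cells was only -0.15 with GLPG0187 and was -1.55 with vehicle. Apoe was above 0 in 66.0% of GLPG0187 and 52.7% of vehicle Rbp4-positive cells, against 58.9% with GLPG0187 and 54.7% with vehicle in other Myh11-high cells. Ankrd1, a stress-responsive nuclear cofactor of muscle, averaged 0.283 with GLPG0187 and 0.946 with vehicle, against 1.37 with GLPG0187 and 2.10 with vehicle. Fhl2, a LIM-only protein, averaged 0.139 with GLPG0187 and 0.135 with vehicle, against 0.294 with GLPG0187 and 0.412 with vehicle, and Col8a1, a short-chain collagen of vessels, 0.329 with GLPG0187 and 0.385 with vehicle, against 0.567 with GLPG0187 and 0.672 with vehicle. Cpne8, C1s1, Psd, Cd34, Tmem176b and Arhgdib made up the rest of the 12 furthest below, with log2 ratios between -1.89 and -0.84. Macrophage markers were also lower, a contrast that the C1q limit on Rbp4-positive cells helped to fix in advance. Cd74 averaged 0.385 in GLPG0187 and 0.101 in vehicle Rbp4-positive cells, against 2.50 with GLPG0187 and 0.657 with vehicle. Without the highest 2% of cells of each population, it averaged 0.303 with GLPG0187 and 0.0759 with vehicle, against 0.356 with GLPG0187 and 0.0976 with vehicle. The part of macrophage markers in the lower ratios was not tested.

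**Figure D3:**
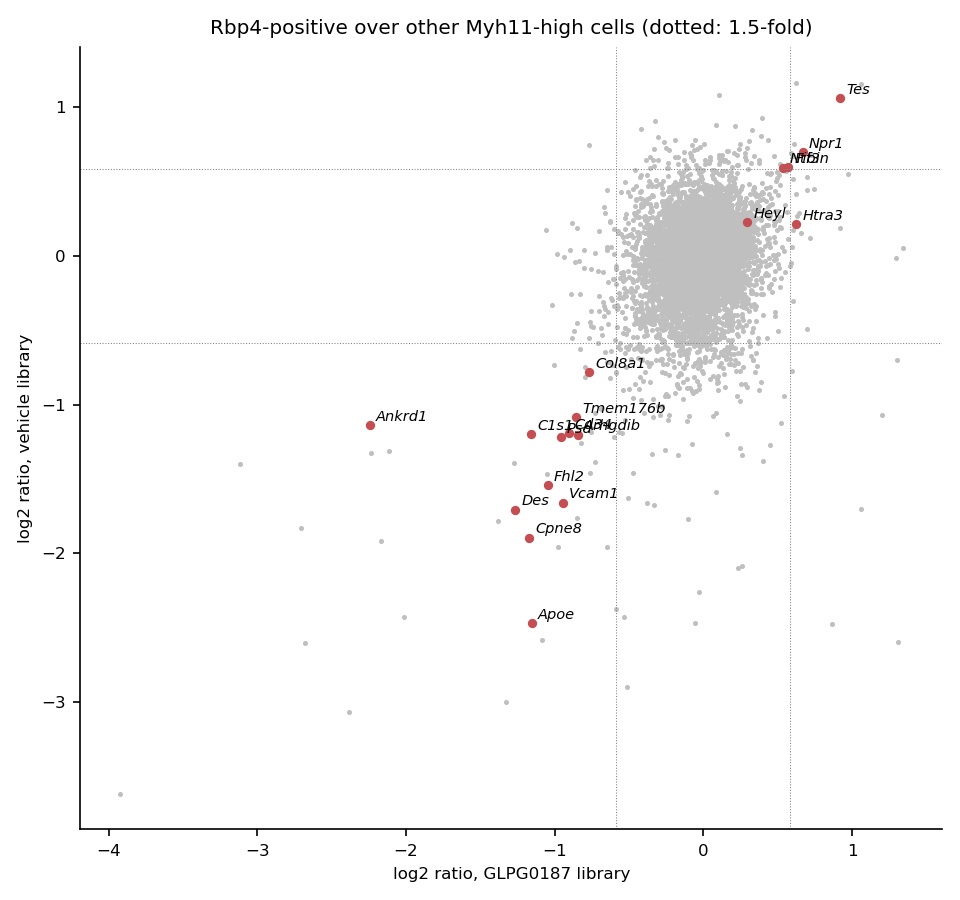
Log2 ratio of Rbp4-positive over other Myh11-high cells for each measured gene, the GLPG0187 library on the horizontal and the vehicle library on the vertical axis, with the rule's genes, Xist and Y-linked genes left out. Dotted lines mark 1.5-fold, and labelled red points are genes named for this comparison and the markers given with the definition; Tes lies at 0.92 with GLPG0187 and 1.06 with vehicle, and Des lies at -1.27 with GLPG0187 and -1.71 with vehicle.

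Against the Rbp4-low cells, which share every limit, 20 genes of 8795 (0.227%) were above the Rbp4-low cells by 1.5-fold or more in both libraries and 33 (0.375%) were below them. Of these, 10 and 9 were present widely enough to be named. Tes was again higher, with log2 ratios of 0.63 with GLPG0187 and 0.71 with vehicle. Npr1 did not reach 1.5-fold here, with log2 ratios of 0.45 with GLPG0187 and 0.36 with vehicle. Mfap4, a microfibril-associated protein of elastic fibres, averaged 4.17 in GLPG0187 and 4.41 in vehicle Rbp4-positive cells, against 2.23 with GLPG0187 and 2.12 with vehicle in Rbp4-low cells, log2 ratios of 0.91 with GLPG0187 and 1.06 with vehicle; against all other Myh11-high cells the ratios were 0.04 with GLPG0187 and 0.15 with vehicle. Wisp2, a secreted CCN-family protein, averaged 0.508 with GLPG0187 and 0.561 with vehicle, against 0.229 with GLPG0187 and 0.271 with vehicle, and Bmp3, a BMP-family ligand, 0.5802 with GLPG0187 and 0.615 with vehicle, against 0.296 with GLPG0187 and 0.352 with vehicle. Bmpr1b, a BMP receptor, averaged 0.345 with GLPG0187 and 0.405 with vehicle, against 0.213 with GLPG0187 and 0.238 with vehicle, and Dsp, desmoplakin of desmosomes, 1.08 with GLPG0187 and 1.46 with vehicle, against 0.701 with GLPG0187 and 0.926 with vehicle. Tmcc3, Dapk2, Grk3 and 2210407C18Rik were the others.

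On the lower side, Palld averaged 1.39 with GLPG0187 and 1.57 with vehicle, against 2.86 with GLPG0187 and 2.66 with vehicle in Rbp4-low cells, log2 ratios of -1.04 with GLPG0187 and -0.76 with vehicle. Vcam1 averaged 0.596 with GLPG0187 and 0.514 with vehicle, against 0.975 with GLPG0187 and 1.76 with vehicle, and Cd44, a hyaluronan receptor, 0.291 with GLPG0187 and 0.250 with vehicle, against 0.465 with GLPG0187 and 0.574 with vehicle. With GLPG0187 the share of cells with Vcam1 above 0 was not lower, at 28.9% against 24.8% of Rbp4-low cells. With vehicle it was 20.3% against 25.4%. Klf4, a transcription factor that rises when smooth muscle leaves the contractile state, averaged 1.26 with GLPG0187 and 0.892 with vehicle, against 2.00 with GLPG0187 and 1.56 with vehicle. Loxl2, a collagen and elastin crosslinking enzyme, averaged 0.251 with GLPG0187 and 0.324 with vehicle, against 0.395 with GLPG0187 and 0.5 with vehicle. Des, Mlf1, Tmem176b and Magee1 were the others. For several genes that were lower than in all other Myh11-high cells the direction did not carry over to this comparison: Cd34 had log2 ratios of 0.21 with GLPG0187 and -0.02 with vehicle and Psd of 0.44 with GLPG0187 and -0.33 with vehicle.

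Gene lists were read with a smaller mark, a log2 ratio of 0.32, which 73 genes of all measured (0.819%) passed upwards and 206 (2.31%) downwards in both libraries. Of 13 measured genes of modulated smooth muscle, 0 passed upwards and 6 downwards in both, namely Vcam1, Timp1, Fn1, Cd34, Lum and Col8a1. The list's median was -0.43 with GLPG0187 and -0.70 with vehicle, against 0.01 with GLPG0187 and 0.01 with vehicle over all genes. Against Rbp4-low cells not all of these were lower. With GLPG0187 the ratios there were -0.70 for Vcam1, -0.30 for Col8a1, 0.21 for Cd34 and 0.29 for Lum. With vehicle they were -1.76 for Vcam1, -0.72 for Col8a1, -0.02 for Cd34 and -2.44 for Lum. Fn1, fibronectin, averaged 6.61 with GLPG0187 and 8.47 with vehicle, against 11.4 with GLPG0187 and 12.5 with vehicle in other Myh11-high cells. Of 21 contractile genes 0 passed upwards and 2 downwards, Des and Actg2, the enteric smooth muscle actin, at 2.37 with GLPG0187 and 2.77 with vehicle against 3.58 with GLPG0187 and 3.56 with vehicle; the medians were -0.02 with GLPG0187 and 0.04 with vehicle. Of 19 genes of TGF-beta signalling 3 were lower in both, Tgfb3, Thbs1 and Bmp4; Tgfb3, a ligand, averaged 1.30 with GLPG0187 and 1.11 with vehicle, against 1.81 with GLPG0187 and 1.54 with vehicle. Of 8 Notch genes 0 were higher and 2 lower, the receptor Notch1 and the target Hes1, while Heyl had ratios of 0.29 with GLPG0187 and 0.23 with vehicle.

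Retinoid genes lay near the median of all genes. Of 11 measured genes of retinoid handling, 0 passed in either direction in both libraries, and the medians were 0.03 with GLPG0187 and 0.01 with vehicle. Dhrs3, a retinaldehyde reductase induced by retinoic acid, averaged 1.20 in GLPG0187 and 1.17 in vehicle Rbp4-positive cells, against 1.165 with GLPG0187 and 1.002 with vehicle in other Myh11-high cells, and Rarb, a retinoic acid receptor, 0.120 with GLPG0187 and 0.122 with vehicle, against 0.102 with GLPG0187 and 0.126 with vehicle. Of 13 integrin genes only Itgb8 passed, downwards. Itgav, the alpha v subunit, averaged 1.15 with GLPG0187 and 1.14 with vehicle, against 1.10 with GLPG0187 and 1.07 with vehicle, and Itga8, an alpha subunit of smooth muscle, 22.02 with GLPG0187 and 21.4 with vehicle, against 19.7 with GLPG0187 and 17.5 with vehicle. Ogn, the matrix proteoglycan osteoglycin, was the single proteoglycan of 10 higher in both, at 17.8 with GLPG0187 and 14.7 with vehicle against 13.7 with GLPG0187 and 11.1 with vehicle. Abcc9, a subunit of ATP-sensitive potassium channels used as a pericyte marker, was higher at 1.41 with GLPG0187 and 1.13 with vehicle against 0.847 with GLPG0187 and 0.831 with vehicle, while the pericyte marker Higd1b was at 0 in Rbp4-positive cells of both libraries.

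Of Myh11-high cells, Rbp4-positive cells made up 24.7% in GLPG0187 (exact 95% interval 22.5 to 26.9%) and 24.3% in vehicle (20.9 to 27.9%), a difference of 0.368 percentage points (-3.83 to 4.41). Of all cells they were 8.51% with GLPG0187 and 4.998% with vehicle, a difference of 3.51 points (2.34 to 4.66), and Myh11-high cells as a whole were 34.5% with GLPG0187 and 20.6% with vehicle. The difference in the share of all cells thus moved with that of Myh11-high cells.

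Cells with Xist and no Y-linked transcript and cells with a Y-linked transcript and no Xist gave different pictures. Among Xist-only Myh11-high cells, 36.3% in the GLPG0187 library (150 of 413) and 25.4% in the vehicle library (46 of 181) were Rbp4-positive, a difference of 10.9 points (2.51 to 18.8). Among Y-only cells the shares were 20.2% with GLPG0187 (196 of 970) and 23.9% with vehicle (91 of 380), a difference of -3.74 points (-8.98 to 1.24). The Rbp4-positive cells of the GLPG0187 library were therefore 40.1% Xist-only, against 31.1% in the vehicle library. Both sexes share 1 library per group, so the difference between the sexes has no replicate check either.

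**Figure D4:**
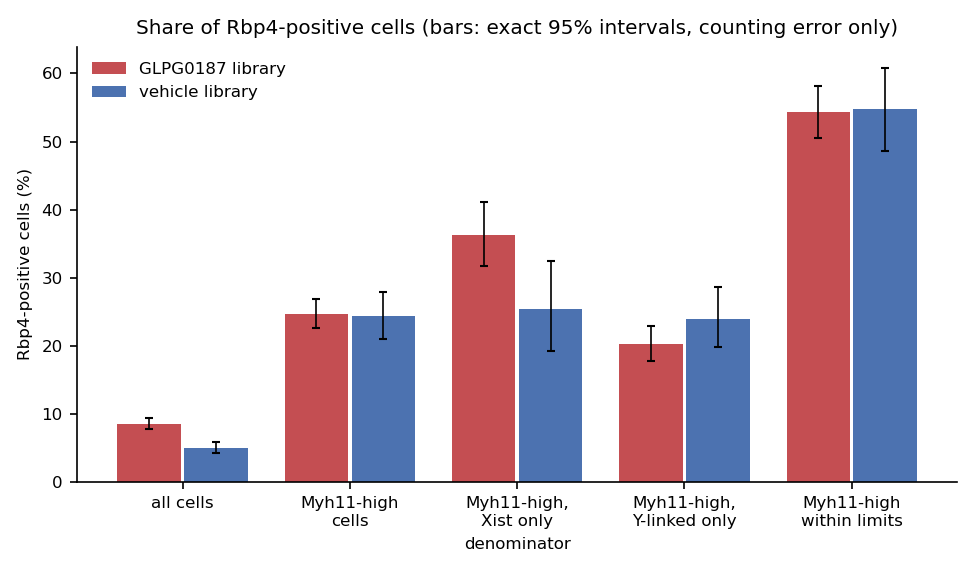
Share of Rbp4-positive cells (vertical axis, percent) among all cells, Myh11-high cells, Xist-only and Y-only Myh11-high cells, and Myh11-high cells within the limits, GLPG0187 in red and vehicle in blue, with exact 95% intervals for counting error. Among Myh11-high cells the bars stand at 24.7% with GLPG0187 and 24.3% with vehicle, among Xist-only cells at 36.3% with GLPG0187 and 25.4% with vehicle, and among Y-only cells at 20.2% with GLPG0187 and 23.9% with vehicle.

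Between the libraries, 178 of 9032 genes (1.97%) were higher by 1.5-fold or more and 361 (4%) lower in GLPG0187 than in vehicle Rbp4-positive cells, and the median log2 ratio of all genes was -0.04. Genes were named only where Xist-only and Y-only cells went the same way and at least 20% of the higher library's cells held the gene, which 53 higher and 134 lower genes met.

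Among the higher genes was Zbtb16, a zinc-finger transcription factor induced by glucocorticoids. It averaged 1.33 in GLPG0187 and 0.601 in vehicle Rbp4-positive cells, was above 0 in 68.2% of GLPG0187 and 42.6% of vehicle cells and had a log2 ratio of 1.15, with 1.42 among Xist-only and 0.88 among Y-only cells. Other Myh11-high cells had nearly the same ratio, 1.12. Fosb, an immediate early transcription factor, averaged 2.24 with GLPG0187 and 0.953 with vehicle, and Gadd45b, a stress-inducible gene, 1.67 with GLPG0187 and 0.696 with vehicle; other Myh11-high cells had log2 ratios of GLPG0187 over vehicle of 0.92 and 0.73 for these genes. The ratios of both differed between the sexes: Fosb had 0.33 among Xist-only and 1.64 among Y-only cells, and Gadd45b had 0.31 among Xist-only and 1.83 among Y-only cells. Cd74, the invariant chain of antigen presentation, averaged 0.385 with GLPG0187 and 0.101 with vehicle. Its log2 ratios were 1.86 in Rbp4-positive and 1.93 in other Myh11-high cells, and 0.80 among Xist-only and 2.97 among Y-only Rbp4-positive cells. Lyz2, another macrophage marker, was just above the log2 mark of 0.32 used for lists, at 0.35. The other macrophage markers averaged under 0.1 and went both ways: Csf1r was higher with GLPG0187, and Cd68 and Mrc1 were lower. The macrophage markers thus did not rise as a group, and the part of macrophage RNA was not tested.

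Of the lower genes, Fam46a, a member of a family of nucleotidyltransferases, averaged 2.54 in GLPG0187 and 5.87 in vehicle Rbp4-positive cells, with medians of 2 with GLPG0187 and 4 with vehicle and a log2 ratio of -1.20, against -0.89 in other Myh11-high cells. Nfil3, a transcription factor tied to the circadian clock, averaged 0.524 with GLPG0187 and 1.14 with vehicle, Dnajb1, a cochaperone of Hsp70, 1.14 with GLPG0187 and 2.49 with vehicle, and Rcan1, an inhibitor of calcineurin, 0.567 with GLPG0187 and 1.22 with vehicle. Abra, an actin-binding protein of muscle, averaged 0.460 with GLPG0187 and 1.09 with vehicle. Crispld1 averaged 0.463 with GLPG0187 and 0.959 with vehicle and Dbr1, the RNA lariat debranching enzyme, 0.134 with GLPG0187 and 0.277 with vehicle. For these 7 genes the log2 ratios in Rbp4-positive cells lay between -1.23 and -1.04, and those in other Myh11-high cells between -0.89 and -0.01.

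A small number of cells carried the largest ratios. Dcn, the fibroblast proteoglycan decorin, averaged 5.80 in GLPG0187 and 0.932 in vehicle Rbp4-positive cells, a log2 ratio of 2.64, but its medians were 1 with GLPG0187 and 0 with vehicle and 8 GLPG0187 cells held 50% of its sum. Lum, the related proteoglycan lumican, averaged 1.11 with GLPG0187 and 0.230 with vehicle, with 7 cells holding 50% of the sum in the GLPG0187 library. Igfbp5 averaged 0.976 with GLPG0187 and 0.189 with vehicle, with 3 such cells. Mindy3, a deubiquitinase, averaged 2.02 with GLPG0187 and 0.743 with vehicle, but 1 cell with a value of 445 held 58.9% of its sum, and for 1500015O10Rik 1 cell with 204 held 56.2%. Ankrd1 averaged 0.283 with GLPG0187 and 0.946 with vehicle, a log2 ratio of -1.72, with 3 vehicle cells holding 50% of the sum and with ratios of -0.62 among Xist-only and -2.07 among Y-only cells. For Ifi27l2a, 7 GLPG0187 and 2 vehicle cells held 50% of the sum, and for Apoe 13 GLPG0187 and 19 vehicle cells did.

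Fibroblast transcripts moved with several of these genes. All 7 fibroblast markers, Pdgfra, Dpep1, Pi16, Clec3b, Gdf10, Lum and Dcn, passed the log2 mark of 0.32 upwards in GLPG0187 over vehicle Rbp4-positive cells, and their sums per cell were 8.11 with GLPG0187 and 1.42 with vehicle. In other Myh11-high cells the sums were 8.24 with GLPG0187 and 7.58 with vehicle. Cells with Dcn of at least 10 or Pdgfra of at least 2 were 8.02% of Rbp4-positive cells in the GLPG0187 library (30 of 374) and 1.35% in the vehicle library (2 of 148), against 9.72% of other Myh11-high cells with GLPG0187 and 9.98% with vehicle. Among Rbp4-low cells they were 6.05% with GLPG0187 and 4.10% with vehicle (5 of 122, exact 95% interval 1.34 to 9.3%). That interval overlaps that of the vehicle Rbp4-positive cells, 0.164 to 4.80%. Pdgfra of at least 2 occurred in 16 GLPG0187 Rbp4-positive cells, which averaged 18.4 for Rbp4, and in 0 of 148 vehicle cells, where the limit that a count of 0 allows, 3 cells of 148, is 2.03% and the exact 95% interval reaches 2.46%. Scrublet, run on the depth-corrected values, marked 10 GLPG0187 and 0 vehicle Rbp4-positive cells as doublets. How many doublets it left unmarked is not known.

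Without the cells with Dcn of at least 10 or Pdgfra of at least 2, a comparison chosen after the data were seen, Rbp4 averaged 5.74 in GLPG0187 and 5.46 in vehicle Rbp4-positive cells, and the log2 ratio of Dcn between the libraries was 0.50, that of Lum 0.57, that of Igfbp5 0.28, that of 1500015O10Rik 0.29 and that of Apoe 0.71. The fall of Dcn followed from the filter on Dcn itself, which left no Rbp4-positive cell above 7 with GLPG0187 or 5 with vehicle. Ifi27l2a, an interferon-responsive gene that averaged 1.39 with GLPG0187 and 0.277 with vehicle, had 1.65 in place of 2.31. Zbtb16, Fam46a, Nfil3, Dnajb1 and Atf3 had 1.15, -1.22, -1.12, -1.13 and -1.19. Without the cells that Scrublet marked, the log2 ratio between the libraries was 1.92 for Dcn, 1.80 for Lum, 0.96 for Apoe, 2.05 for Ifi27l2a and 1.14 for Zbtb16.

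**Figure D5:**
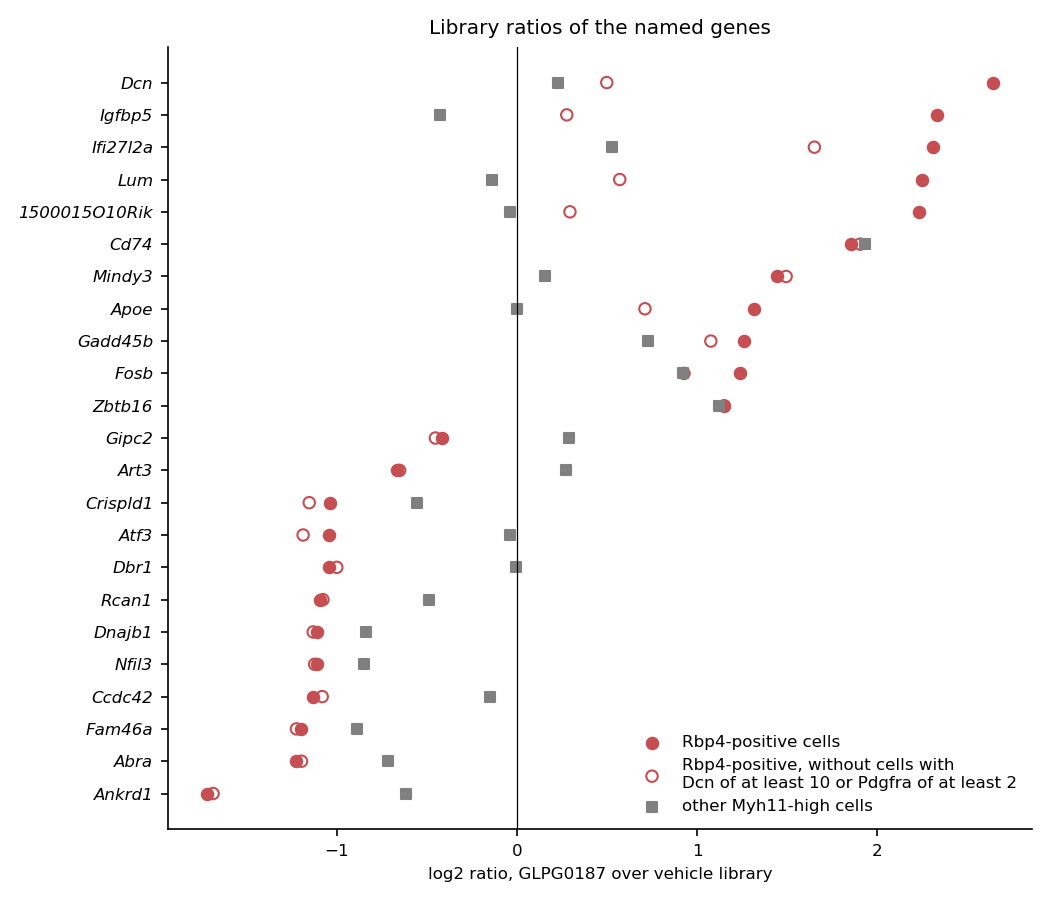
Log2 ratio of GLPG0187 over vehicle (horizontal axis) for the named genes, in Rbp4-positive cells (filled red), in Rbp4-positive cells without those with Dcn of at least 10 or Pdgfra of at least 2 (open red), and in other Myh11-high cells (grey squares). Dcn lies at 2.64, 0.50 and 0.23, and Zbtb16 at 1.15, 1.15 and 1.12. The open point of Dcn was lowered by the filter itself, which used Dcn.

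Where Rbp4-positive and other Myh11-high cells differed in the library ratio, the difference was not tested, since each ratio rests on the same pair of libraries. Of genes averaging at least 0.5 in both populations, with no condition on Xist-only or Y-only cells or on the share of cells with the gene, 18 had a ratio at least 0.58 higher in Rbp4-positive cells and 6 had one at least 0.58 lower. The number of genes that met this floor is not given here, so these counts cannot be read as many or few. Igfbp5, Dcn, Lum, Ifi27l2a and Apoe led the higher ones, with differences of 2.76, 2.41, 2.39, 1.78 and 1.31. Without the cells that Scrublet marked these were 1.49, 1.63, 1.94, 1.503 and 1.10, and without the cells with Dcn of at least 10 or Pdgfra of at least 2 they were 0.74, -0.04, 0.34, 1.26 and 0.66. The fall for Dcn in the latter followed from the filter, which used Dcn itself. Among Xist-only cells the difference of Igfbp5 was 0.41 and that of Dcn -0.19, and among Y-only cells they were 4.64 and 3.02. Of the lower ones, Atf3, a stress-induced transcription factor, averaged 2.22 in GLPG0187 and 4.61 in vehicle Rbp4-positive cells, a log2 ratio of -1.04, while other Myh11-high cells had 3.56 with GLPG0187 and 3.68 with vehicle, a ratio of -0.04. Atf3 was also lower with GLPG0187 in the Rbp4-low part of those cells, at 3.66 against 5.62 with vehicle, a ratio of -0.61. Ccdc42 averaged 0.684 with GLPG0187 and 1.51 with vehicle, against 0.644 with GLPG0187 and 0.718 with vehicle in the other cells, ratios of -1.13 in Rbp4-positive and -0.15 in other cells. Art3, an ADP-ribosyltransferase family member, averaged 0.449 with GLPG0187 and 0.716 with vehicle, against 0.873 with GLPG0187 and 0.727 with vehicle in the other cells, and Gipc2, a PDZ-domain protein, 0.473 with GLPG0187 and 0.635 with vehicle, against 0.613 with GLPG0187 and 0.503 with vehicle. The differences of these last genes were small among Xist-only cells, at -0.15 for Art3 and -0.13 for Gipc2, against -1.16 for Art3 and -1.07 for Gipc2 among Y-only cells.

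With the smaller mark of 0.32, which 637 of all genes (7.05%) passed upwards and 1389 (15.4%) downwards between the libraries, contractile genes stayed close together: Des alone of 21 passed, upwards, and the median was 0.01. Of 13 integrin genes 0 passed in either direction, with a median of 0.06, and Itgav averaged 1.15 in GLPG0187 and 1.14 in vehicle Rbp4-positive cells. Of 19 TGF-beta genes, 2 passed upwards and 3 downwards, counts near what the shares over all genes would give. Upwards passed Ski and Thbs1 (thrombospondin 1), and 2 cells held 50% of the sum of Thbs1 with GLPG0187. Without cells with Dcn of at least 10 or Pdgfra of at least 2, Thbs1 had a log2 ratio of 0.05 in place of 1.79. Among the 3 lower were Ctgf, a matricellular protein induced by TGF-beta, at 23.4 with GLPG0187 and 45.8 with vehicle, and Id1, a target of BMP signalling, at 3.40 with GLPG0187 and 6.28 with vehicle. The log2 ratio of Ctgf was -0.96 in Rbp4-positive and -0.71 in other Myh11-high cells, and that of Id1 was -0.87 in Rbp4-positive and -0.72 in other Myh11-high cells.

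Of 9 interferon-responsive genes, 7 passed upwards and 1 downwards, with a median of 0.45, and 0.36 in other Myh11-high cells; the median was 0.18 among Xist-only and 0.49 among Y-only Rbp4-positive cells. A few cells held most of the sum of some of these genes. For Ifit1, 1 GLPG0187 cell held 77.7% of the sum, and without the highest 2% of cells its mean was 0.0164 with GLPG0187 and 0.0138 with vehicle. For Isg15, 2 GLPG0187 cells held 50% of the sum, and its mean without the highest 2% was 0.0847 with GLPG0187 and 0.0828 with vehicle. For Ifit3, 1 GLPG0187 cell held 71.4% of the sum, and its mean without the highest 2% was 0.0328 with GLPG0187 and 0.0345 with vehicle. Ifitm3, in contrast, averaged 4.29 with GLPG0187 and 3.32 with vehicle and was above 0 in 90.6% of GLPG0187 and 91.2% of vehicle cells. Its log2 ratio of 0.38 became 0.30, under the mark, without cells with Dcn of at least 10 or Pdgfra of at least 2. Of 14 immediate early genes, 7 passed upwards and 4 downwards. Fos averaged 18.3 with GLPG0187 and 9.05 with vehicle, with log2 ratios of 0.01 among Xist-only and 1.53 among Y-only cells, and Jun 3.55 with GLPG0187 and 5.85 with vehicle, with ratios of -1.52 among Xist-only and -0.21 among Y-only cells. Of 12 glucocorticoid-responsive genes 2 passed upwards, Zbtb16 and Fkbp5, and 6 downwards, with a median of -0.31 in all Rbp4-positive cells but 0.16 among Xist-only and -0.47 among Y-only cells. Of 11 collagen genes 4 passed upwards, Col1a1, Col1a2, Col6a1 and Col6a3, with a median of 0.27; in Xist-only cells the median was 0.09 and in Y-only cells 0.42. Fibroblast markers were higher in the same cells: without those with Dcn of at least 10 or Pdgfra of at least 2, Col1a1 had 0.20 in place of 0.33 and Col1a2 0.27 in place of 0.35, both under the mark, while Col6a1 had 0.61 and Col6a3 0.49. Hes1, the Notch target, averaged 1.15 in GLPG0187 and 0.554 in vehicle Rbp4-positive cells, a log2 ratio of 1.05, with 0.87 among Xist-only and 1.01 among Y-only cells and 0.44 in other Myh11-high cells.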

How the data were processed

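The 2 deposited tables hold 1 value per gene and cell, treated as a score: whole numbers whose totals per cell are nearly even, so depth had been corrected before deposit. Cell Ranger, Seurat and mm10 are named, per the submitters' processing notes, without versions or roles; further steps are not stated there. Groups follow the treatment label. The members, gene lists and tests were chosen with earlier results of these data known. Values were summed per population and library, 1 was added, and sums were divided by the population's total; genes averaging under 0.1 per cell were left out. No count model, interval from counts of molecules or test was used, because the values are not counts and each group is 1 library. Shares have exact Clopper-Pearson 95% intervals. Genes were named by rank of the ratio among those at least 1.5-fold apart in both libraries (up to 15 higher and 12 lower) or, between libraries, in the same direction by at least 0.2 in Xist-only and Y-only cells (10 each way), and present in at least 20% of cells; differences between library ratios were ranked among genes averaging at least 0.5 (5 each way), with no condition on Xist-only or Y-only cells or on the share of cells. All were without the rule's, Xist, Y-linked, mitochondrial and ribosomal genes. The same rule was applied against Rbp4-low cells. Scrublet in scanpy 1.11.5, run on the deposited depth-corrected values, marked doublets in each library (1.09% of GLPG0187 and 0.540% of vehicle cells), which were kept. Python 3.11.15, numpy 2.4.6, scipy 1.17.1 and pandas 2.3.3 were used. The ratio was tested on simulated sums with known folds. These had no spread between cells, so they cannot show the weight of single cells in a sum. Coordinates are from GENCODE M21 by symbol (18679 of 18920 matched). Some genes that met the naming rule or belong to a list are not reported here.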

Additional observations from a re-analysis of the deposited data

Results flagged for a closer look

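The library difference in the share of Rbp4-positive among Myh11-high cells had opposite signs in the sexes, 10.9 percentage points in Xist-only cells and -3.74 points in Y-only cells, GLPG0187 minus vehicle; the difference between the sexes was not tested. Igfbp5 had log2 ratios of GLPG0187 over vehicle of 2.33 in Rbp4-positive and -0.43 in other Myh11-high cells, with 3 cells holding 50% of its sum in GLPG0187 Rbp4-positive cells. Art3 had -0.66 in Rbp4-positive and 0.27 in other Myh11-high cells, and Gipc2 had -0.42 in Rbp4-positive and 0.29 in other Myh11-high cells. Among Xist-only cells the difference between the populations was -0.15 for Art3, -0.13 for Gipc2 and 0.41 for Igfbp5, against -1.16 for Art3, -1.07 for Gipc2 and 4.64 for Igfbp5 among Y-only cells. These 3 differences were not tested either, because each group is 1 library.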

How the results depend on the processing

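No paired analysis was possible because each group holds 1 library. Leaving out a replicate was not possible for the same reason. Except where said, the cause of a move was not tested. The share of Rbp4-positive among Myh11-high cells, 24.7% in GLPG0187 and 24.3% in vehicle, became 32.19% and 32.02% with Rbp4 of at least 1, 18.54% and 18.88% with at least 3, and 54.36% and 54.81% within the limits, by construction; the GLPG0187 share was 36.32% among Xist-only and 20.21% among Y-only cells. The 9 genes higher in Rbp4-positive than in other Myh11-high cells became 16 with Myh11 of at least 40, 20 against Rbp4-low cells, 21 with detected genes between the quartiles, 22 among Xist-only and 22 among Y-only cells, 897 with no filter, 3 at a mean of at least 0.5 and 2 at a fold of 2. The 58 lower became 33 against Rbp4-low cells, 103 in Xist-only cells, 452 with no filter, 15 at a mean of at least 0.5 and 26 at a fold of 2. The 178 higher in GLPG0187 than in vehicle became 109 with Rbp4 of at least 1, 492 between the quartiles, 334 among Xist-only and 362 among Y-only cells, 99 with 5 added to sums, 1067 with no filter, 30 at a mean of at least 0.5 and 58 at a fold of 2. The 361 lower became 607 with Myh11 of at least 40, 624 between the quartiles, 1262 in Xist-only cells, 2354 with no filter, 32 at a mean of at least 0.5 and 45 at a fold of 2. The 19 genes (all measured) with a library ratio at least 0.58 higher in Rbp4-positive cells became 9 with Rbp4 of at least 1, 39 against Rbp4-low cells, 51 between the quartiles, 92 among Xist-only and 33 among Y-only cells, 1666 with no filter, 7 at a fold of 2 and, chosen after the data were seen, 11 without cells with Dcn of at least 10 or Pdgfra of at least 2. The 6 lower became 16 with Rbp4 of at least 3, 20 with Myh11 of at least 40, 21 against Rbp4-low cells, 51 between the quartiles, 120 among Xist-only and 29 among Y-only cells, 2224 with no filter and 2 at a fold of 2. With no filter, genes with small sums are set by the added 1. Signs turned against Rbp4-low cells for Ankrd1 in vehicle (0.0953) and for Psd (0.443), Cd34 (0.2137) and Arhgdib (0.08202) in GLPG0187. The library ratio of Mindy3 was -0.005935 with Myh11 of at least 40 and -0.27 between the quartiles, where its top cell was left out. The difference of Dcn ratios was -0.4232 with Rbp4 of at least 1 and -0.1869 in Xist-only cells. Without cells with Dcn of at least 10 or Pdgfra of at least 2, a filter on Dcn itself, it was -0.04488. The difference of Ankrd1 ratios was 0.1686 with Myh11 of at least 40. The median ratio of the fibroblast markers, Rbp4-positive over other cells in GLPG0187, was 0.8429 with no filter.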

Other observations

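Myh11-high cells that had Rbp4 of at least 2 but were kept out by a limit had the same mean Rbp4 level in both libraries, 5.58 in each, and lower Tes than Rbp4-positive cells, at 1.09 in GLPG0187 and 0.813 in vehicle cells. Their Ntf3 averaged 0.895 with GLPG0187 and 1.08 with vehicle. Of 15 measured transcription factors of aortic regions, Hoxa3 alone was above the log2 mark of 0.32 in both libraries in Rbp4-positive over other Myh11-high cells, at 0.38 with GLPG0187 and 0.38 with vehicle, with levels of 0.422 with GLPG0187 and 0.345 with vehicle against 0.328 with GLPG0187 and 0.269 with vehicle. Limch1, an actomyosin regulator described after its values were seen, averaged 3.52 in GLPG0187 and 3.66 in vehicle Rbp4-positive cells, against 2.48 with GLPG0187 and 2.40 with vehicle in other Myh11-high cells, and was above 0 in 91.7% of GLPG0187 and 90.5% of vehicle Rbp4-positive cells.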
